A study of Mus musculus with 13 samples.

Results

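Primitive erythroid cells are the first red blood cells of the mouse embryo. They were chosen by their globin transcripts from all 10 matrices of unique molecular identifier (UMI) counts, in which each UMI marks 1 captured transcript. A barcode, the tag that all transcripts of 1 droplet share, was taken when it had at least 1000 UMIs, when the 7 globin genes Hba-a1, Hba-a2, Hba-x, Hbb-bs, Hbb-bt, Hbb-bh1 and Hbb-y held at least 20% of them, and when Hbb-y plus Hbb-bh1 UMIs outnumbered Hbb-bs plus Hbb-bt UMIs. This gave 1555 cells of 90960 barcodes with at least 1000 UMIs. The same rule with adult beta globin in the majority gave 2493 definitive erythroid cells, which serve as the most similar cells for comparison. Because globin counts chose the cells, globin values are described below without a test, and the tests of genes cover non-globin genes only.

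The study profiled wild-type C57Bl/6J mice with no transgene or treatment, by droplet-based single-cell RNA sequencing, to follow the heart and its conduction system through development. Embryos without head and limbs were dissociated at E8.5 and E10.5 (embryonic days), and hearts from E12.5 to E16.5 and at P3 (postnatal day 3). The stages E10.5, E12.5, E14.5 and E16.5 had 2 libraries each, E8.5 had 1 (replicate 2, since replicate 1 was not analysed here), and P3 had 1 matrix that pools 2 sample records. Trypsin and the v2 reagent kit are named in the labels, whereas the methods of the study name collagenase II and the v3 kit. The sources used here do not say whether replicates came from separate litters, so p-values measure only the spread between these libraries, which may be technical.

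Primitive erythroid cells arise in blood islands of the yolk sac, enter the circulation while still nucleated and mature there as a wave. They fill with haemoglobin, stop dividing, condense and finally lose the nucleus. Their haemoglobin is built from the embryonic chains encoded by Hbb-y, Hbb-bh1 and Hba-x together with the alpha chains of Hba-a1 and Hba-a2. Definitive erythroid cells come later, mainly from the fetal liver, carry the adult beta chains of Hbb-bs and Hbb-bt, and lose the nucleus before they enter the circulation.

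The beta globin genes lie side by side on chromosome 7 in the order Hbb-bt, Hbb-bs, Hbb-bh1 and Hbb-y (GRCm38, gene spans from GENCODE). Hbb-y occupies chr7:103851749-103853216 and Hbb-bh1 chr7:103841637-103843164, both on the minus strand. Hba-x occupies chr11:32276400-32278116 on the plus strand, ahead of Hba-a1 and Hba-a2. The 120 bases before the RefSeq start of 4 of these genes (RefSeq, GRCm38.p6) are shown because the relative use of these genes defines the cells and changes with stage. RefSeq starts differ from the ends of the GENCODE spans, so that the windows of Hba-x and Hbb-bs lie inside those spans and those of Hbb-y and Hbb-bt overlap them. Hbb-bh1 is named only. Capitals mark the short motif CACCC, the motif CCAAT and the motif GATAA wherever they occur, including where a motif lies on the opposite strand and is therefore read as its reverse complement.
Hbb-y: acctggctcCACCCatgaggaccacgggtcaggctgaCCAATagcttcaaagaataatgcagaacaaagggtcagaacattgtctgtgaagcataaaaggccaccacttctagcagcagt
Hba-x: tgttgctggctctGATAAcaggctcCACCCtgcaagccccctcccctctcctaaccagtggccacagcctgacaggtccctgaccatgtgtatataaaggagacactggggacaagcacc
Hbb-bt: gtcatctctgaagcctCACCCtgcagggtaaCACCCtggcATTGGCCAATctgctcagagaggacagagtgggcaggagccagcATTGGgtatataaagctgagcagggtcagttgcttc
Hbb-bs: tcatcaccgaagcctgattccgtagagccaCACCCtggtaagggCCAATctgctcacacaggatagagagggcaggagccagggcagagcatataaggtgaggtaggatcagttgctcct
The windows are Hbb-y at chr7:103853208-103853327, Hba-x at chr11:32276480-32276599, Hbb-bt at chr7:103813924-103814043 and Hbb-bs at chr7:103827929-103828048, each printed in the direction of its gene. CACCC was present in all 4 windows, between positions -111 and -85 counted back from the RefSeq start. CCAAT was present in the 3 beta globin windows, and GATAA only in that of Hba-x among these 4. Among 32851 RefSeq promoter windows of the same length, 10417 held CACCC (31.7%), 6994 held CCAAT (21.3%) and 3449 held GATAA. These matches describe letters in the sequence and not bound sites.

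Libraries held from 67141166 to 259041468 UMIs, and 5843 to 17098 barcodes passed the UMI floor. No doublet caller was run. In all, 4 barcode sequences marked a primitive erythroid cell in 2 libraries, and 202 of the cells had a barcode that was listed with at least 500 UMIs in another library. Other cells in the same libraries, which were themselves chosen by a low globin share, had a median share of 0.0102 to 0.229%. That value was thus set in part by their choice. Free RNA (barcodes of 10 to 100 UMIs) had 0.517 to 6.71% globin. The E12.5 and E14.5 suspensions are hearts, and cardiomyocyte transcripts were found among the erythroid cells there. The 12 cardiomyocyte markers held 0.00486 and 0.00423% of non-globin UMIs of primitive erythroid cells at E10.5, then 0.988 and 1.05% at E12.5, and 2.46 and 2.49% at E14.5. At E14.5 they came mostly from a few barcodes. In replicates 1 and 2, 12 and 14 cells (7.59 and 8.97%) had over 2% of these markers and held 37.7 and 41.2% of all non-globin UMIs. Counts of calls, and values at E14.5 that changed most, are therefore also given without cells over 2%.

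The number of primitive erythroid cells rose from the embryo libraries to the E12.5 hearts and then fell to none at P3. At E8.5 there were 52 among 6108 barcodes, or 0.851% (exact 95% binomial interval 0.636 to 1.11). At E10.5 there were 187 and 209, or 1.09 and 1.24%. At E12.5 there were 327 (5.60%, interval 5.02 to 6.22) and 458 (5.85%, interval 5.34 to 6.39). At E14.5 there were 158 (2.46%, interval 2.09 to 2.87) and 156 (2.66%, interval 2.26 to 3.103). These intervals and the limit for a count of 0 cover counting error only. Replicates of a stage had overlapping intervals, while the E10.5, E12.5 and E14.5 libraries did not overlap each other. An exact permutation test over the 6 libraries of these 3 stages has 90 assignments and cannot go below 0.0667, which was the p obtained. That test can decide nothing, and globin counts set which cells are counted, so the share is given as description only. The share is that of barcodes in a suspension. E10.5 suspensions are embryos without head and limbs and E12.5 suspensions hearts, so stage and tissue cannot be told apart as a source of the difference.

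**Figure D1:**
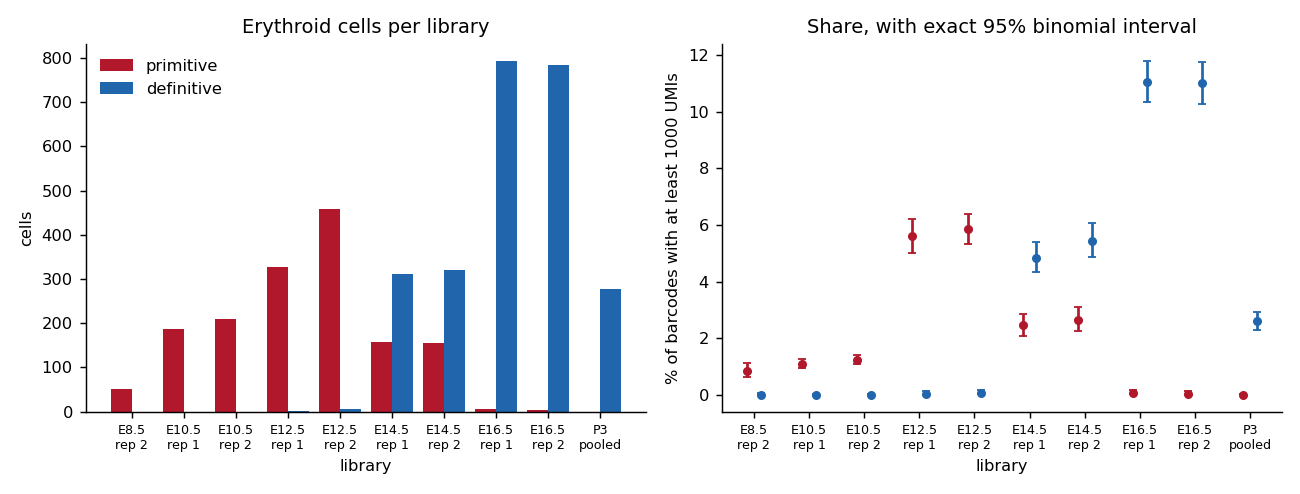
Erythroid cells per library, as a number of cells (left) and as a percent of barcodes with at least 1000 UMIs (right, with exact 95% binomial intervals), for primitive and definitive cells. Primitive cells reached 458 in E12.5 replicate 2 and fell to 0 at P3, while definitive cells were absent at E8.5 and E10.5 and numbered 792 and 784 at E16.5.

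Definitive erythroid cells were absent at E8.5 and E10.5, numbered 2 and 6 at E12.5, and outnumbered primitive cells at E14.5 with 311 and 320. The choice between both kinds rested on few borderline cells. Embryonic transcripts held 40 to 60% of beta globin in 1 and 3 cells at E14.5 and in none elsewhere. At E16.5 only 5 and 3 primitive cells were found (0.0698 and 0.0421% of barcodes), beside 792 and 784 definitive ones. P3 had 0 of 10689 barcodes, which allows a share of up to 0.0281% by a limit of 3 barcodes and 0.0345% by the exact 95% interval. The P3 matrix lists only 10964 barcodes, against 737280 in each embryonic matrix, so small cells may have been dropped from it.

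The globin share itself rose with stage up to E14.5, while the few cells at E16.5 had medians of 81.1 and 78.7%. Its median was 24.3% at E8.5, then 28.5 and 30.0% at E10.5, then 81.6 and 80.1% at E12.5, and 91.2 and 90.2% at E14.5. The 20% limit thus passed through the lower edge of the cells at the early stages. Between 15 and 20% globin lay 15 barcodes at E8.5 and then 25 and 18 at E10.5, against 0 and 4 at E12.5. Just inside, between 20 and 25%, lay 29 at E8.5 and then 56 and 45 at E10.5, against 0 and 3 at E12.5. Early counts are therefore those of cells already past this limit.

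Total UMIs per cell did not rise in the same way. The median total was 31035.5 UMIs for the E8.5 cells, 25938 and 23099 for E10.5, 30514 and 27072 for E12.5, and 15181 and 10889 for E14.5. Median globin UMIs per cell were 7758 at E8.5, then 7040 and 6540 at E10.5, then 24407 and 21262 at E12.5, and 11745 and 8594 at E14.5. Median non-globin UMIs fell throughout, from 23924 at E8.5 to 18163 and 16258 at E10.5, then 5339 and 4992 at E12.5, and 1383 and 1038 at E14.5. The gain in globin share from E10.5 to E12.5 thus went with more globin UMIs and fewer others per cell. That from E12.5 to E14.5 went with fewer of both. Other cells of these libraries had median totals of 23223.5 UMIs at E8.5, then 12578.5 and 12949.5 at E10.5. At E12.5 they had 16329 and 13864, and at E14.5 11490.5 and 7705.5. UMIs per cell were not adjusted for the depth of the libraries, and its part was not tested.

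**Figure D2:**
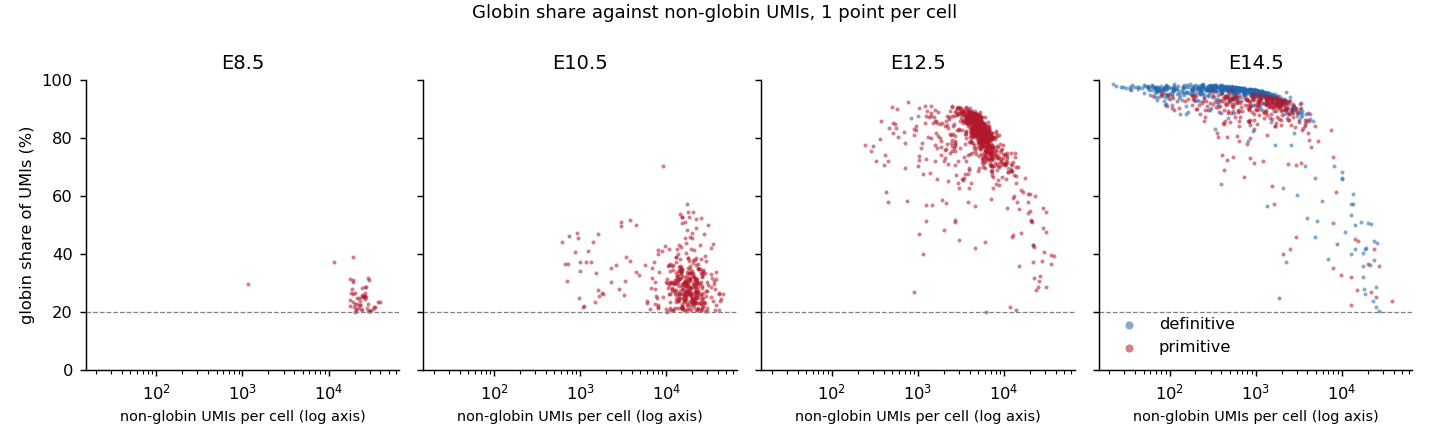
Globin share of UMIs (percent) against non-globin UMIs (log axis) for each erythroid barcode at 4 stages, with the 20% limit as a dashed line. Primitive cells lay near the limit at E8.5 and E10.5, had medians of 81.6 and 80.1% at E12.5, and reached 91.2 and 90.2% at E14.5, where definitive cells lay beside them.

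Transcript diversity fell as well. The median number of genes detected was 3322 at E8.5, then 2555 and 2423 at E10.5, then 1214 and 1115 at E12.5, and 334 and 292 at E14.5. After each cell was thinned to 500 non-globin UMIs, the medians were 295 at E8.5, then 272 and 276 at E10.5, then 268 and 261 at E12.5, and 192 and 182 at E14.5. Thinning left out 3 and 9 cells at E12.5 and 29 and 43 at E14.5, which had fewer UMIs. At equal depth the step from E10.5 to E12.5 was small, and most of the drop lay between E12.5 and E14.5.

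The make-up of the globin RNA also shifted. Hbb-bh1, the beta globin of the earliest primitive cells, held 34.5% of embryonic beta globin UMIs at E8.5, then 25.9 and 25.1% at E10.5, then 6.50 and 6.65% at E12.5, and 0.610 and 0.490% at E14.5. Hba-x, the embryonic alpha-like gene, held 43.9% of alpha globin UMIs at E8.5, then 35.1 and 34.7% at E10.5, then 19.3 and 18.1% at E12.5, and 9.36 and 9.56% at E14.5. Hbb-y stayed the main beta globin, with 35.7% of all globin UMIs at E8.5 and 43.5 and 42.0% at E14.5. So from E8.5 to E14.5 the library sums of both shares, Hbb-bh1 in embryonic beta globin and Hba-x in alpha globin, were lower at each later stage. These sums did not overlap between stages, but single cells did. The 5th and 95th percentiles of the Hbb-bh1 share were 28.2 and 43.8% at E8.5 and 19.7 and 33.6% in E10.5 replicate 1. Hbb-y makes up the rest of embryonic beta globin, so its share there rose as that of Hbb-bh1 fell.

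Adult beta globin appeared inside primitive cells. Hbb-bs plus Hbb-bt held 1.18% of beta globin UMIs at E8.5, then 1.03 and 1.33% at E10.5, then 16.3 and 16.3% at E12.5, and 12.2 and 13.4% at E14.5. Per cell, the median was 32 adult beta UMIs at E8.5, then 22 and 24 at E10.5, then 1933 and 1678 at E12.5, and 669 and 497 at E14.5. The share was wide-spread among cells, with 5th and 95th percentiles of 8.04 and 24.0% in E12.5 replicate 1. Within the adult pair, Hbb-bt held 70.6% in both E12.5 libraries and 56.0 and 53.5% at E14.5, against 34.3 and 33.6% in the definitive cells of the same E14.5 libraries. The 2 genes are near-identical copies, so reads may have been split between them. Free RNA carried globin too. Of its beta globin UMIs 82.3 and 80.7% were embryonic at E12.5, but only 52.7 and 26.0% at E14.5, and its part was not tested.

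**Figure D3:**
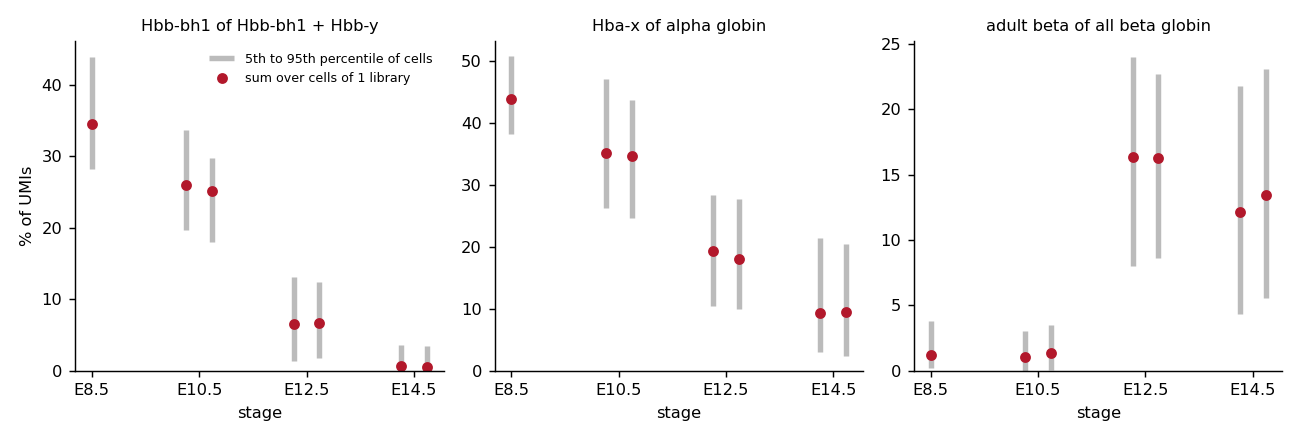
Globin ratios in primitive erythroid cells by stage, in percent of UMIs, with library sums as points and the 5th to 95th percentile of cells as grey bars. The Hbb-bh1 share of embryonic beta globin fell from 34.5% at E8.5 to 0.610 and 0.490% at E14.5, and the adult share of beta globin was 16.3% in both E12.5 libraries.

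Beyond globins, the cells carried erythroid transcripts. The shares of cells with a UMI below fell along with depth, from a median of 23924 non-globin UMIs per cell at E8.5 to 1383 and 1038 at E14.5, and no change is read from them. Alas2, which encodes the first enzyme of haem synthesis in red cells, was detected in 100% of the E8.5 cells, 95.7 and 95.2% at E10.5, then 98.5 and 98.0% at E12.5, and 67.1 and 69.2% at E14.5. The same transcript was found in 0.688 to 1.82% of the other cells of these libraries. Gata1, the master regulator of the lineage, was detected in 84.6% at E8.5, then 61.5 and 67.9% at E10.5, then 29.7 and 29.0% at E12.5, and 3.16 and 1.28% at E14.5. Klf1, which drives many red cell genes, went from 98.1% to 2.53 and 0%. Kit, the stem cell factor receptor of progenitors, was found in at most 3 cells of any library. The 9 defining erythroid genes other than globins together held 0.200 to 0.500% of non-globin UMIs of primitive cells against 0.00227 to 0.00292% of other cells from E8.5 to E14.5. These other cells were chosen by their low globin share, so erythroid cells just below the globin limit were not among them.

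Levels below are UMIs scaled to a common total of 1000000 non-globin UMIs (CPM), summed over the cells of a library. Differences are log2 fold changes from edgeR's quasi-likelihood test on these sums, with p-values adjusted by the Benjamini-Hochberg method over every gene in the fit. Standard errors were derived as the size of the log2 change divided by the square root of the test's F statistic. From E10.5 to E12.5, 2533 of 8468 genes rose (29.9%) and 2189 fell (25.9%). Rises were called for 10 of 14 haem synthesis, 17 of 19 red cell membrane, 7 of 8 antioxidant and 16 of 18 terminal maturation genes, and falls for 19 of 20 S phase and 55 of 81 ribosomal protein genes. Counts for each list of genes are best read against those 2 percentages. E10.5 libraries are embryos and E12.5 libraries hearts, so stage and tissue cannot be told apart. Without genes more abundant in free RNA, 1390 of 2041 genes were called, and without cells over 2% cardiomyocyte markers 2117 of the rises and 1981 of the falls were called again. List counts and medians were not computed without genes more abundant in free RNA. In that setting Gata1, Mki67 and Tal1 all had lower log2 changes than with all genes.

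Of 14 haem synthesis genes, 10 rose and 3 fell, with a median log2 change of 0.90 against 0.05 for all genes. Urod, an enzyme in the middle of the pathway, stood at 140 and 151 CPM at E10.5 and at 911 and 682 at E12.5, a log2 change of 2.52 ± 0.13 (SE, adjusted p = 5.25e-11). Alas2 stood at 1190 and 1155 CPM and then at 2663 and 2285 (log2 change 1.15 ± 0.11, adjusted p = 7.17e-08). Tmem14c, a mitochondrial carrier of haem precursors, went the other way, from 1555 and 1674 to 657 and 591 CPM (log2 change -1.30). Haem synthesis transcripts together held 0.813% of non-globin UMIs at E8.5, then 0.650 and 0.668% at E10.5, followed by 1.03 and 0.914% at E12.5.

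Of 13 tested iron genes, 6 rose and 3 fell. Fth1, the ferritin heavy chain that stores iron, was the most abundant non-globin transcript at E12.5, with 44348 and 40571 CPM against 15202 and 15296 at E10.5. Tfrc, the transferrin receptor that brings iron into the cell, fell from 121 and 116 to 46.6 and 52.5 CPM (log2 change -1.18 ± 0.14, adjusted p = 1.08e-06). At E8.5 it stood at 209 CPM.

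Of 19 membrane and membrane skeleton genes, 17 rose and none fell, with a median log2 change of 1.36. Rhd, a blood group protein, rose most in the list, from 80.0 and 74.6 to 798 and 663 CPM (log2 change 3.31 ± 0.13, adjusted p = 1.88e-12). Slc4a1, the anion exchanger band 3, rose from 270 and 278 to 545 and 618 CPM. Membrane transporters were mixed, with 5 of 11 tested up and 3 down, among them the nucleoside transporter Slc29a1, from 89.4 and 86.0 to 14.52 and 9.44 CPM.

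Regulators were mixed, with 11 of 22 tested up and 5 down. Klf1 rose from 134 and 146 to 273 and 249 CPM and Tal1, a partner of Gata1, from 102 and 82.3 to 159 and 156 CPM (log2 changes 0.96 and 0.84). Tal1 was not called without genes more abundant in free RNA (adjusted p = 0.185). Gata1 had 80.0 and 94.3 CPM at E10.5 and 72.6 and 72.9 at E12.5 and was not called (log2 change -0.19 ± 0.15, adjusted p = 0.300), but was called lower at -0.80 without genes more abundant in free RNA (adjusted p = 0.000256). Tal1 lay lower in that setting too, at 0.24, so the shift was not particular to Gata1. Myc, which promotes growth and division, fell from 52.5 and 49.7 to 7.01 and 9.06 CPM. Lin28a, an RNA-binding protein of early embryonic cells, had 5.13 and 4.57 CPM at E10.5 and no UMI at E12.5, which is at least 7.51-fold lower against a floor of 3 UMIs over both libraries.

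Of 18 tested genes of terminal maturation, 16 rose and none fell, with a median log2 change of 2.58. Bnip3l, which tags mitochondria for removal, rose from 176 and 172 to 1218 and 1084 CPM (log2 change 2.79 ± 0.11, adjusted p = 1.88e-12). Ube2l6, a ubiquitin-pathway enzyme, rose from 198 and 223 to 1510 and 1440 CPM, and Tmcc2 from 8.46 and 8.29 to 209 and 214 CPM. Tspo2, a red cell relative of the mitochondrial translocator protein, had no UMI at E8.5 or E10.5 and 146 and 112 CPM at E12.5, at least 293-fold higher against the same kind of floor. Of 8 antioxidant genes, 7 rose, among them Gpx1, from 4774 and 5000 to 16701 and 17085 CPM, and catalase (Cat), from 26.6 and 27.7 to 211 and 195 CPM.

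Of 20 S phase genes, 19 fell and none rose, with a median log2 change of -1.39. Dut, which keeps uracil out of DNA, fell from 247 and 242 to 68.6 and 60.0 CPM (log2 change -1.87 ± 0.13, adjusted p = 2.30e-09). The S phase share of non-globin UMIs was 0.154% at E8.5, then 0.0999 and 0.104% at E10.5, followed by 0.0379 and 0.0358% at E12.5. G2M genes, of mitosis, changed less uniformly, with 8 of 20 down and 1 up. Mki67, carried by dividing cells, had 108 and 105 CPM and then 95.7 and 89.9 (log2 change -0.13, adjusted p = 0.363, but called lower at -0.74 without genes more abundant in free RNA, adjusted p = 3.78e-05), and Ccnb2, a mitotic cyclin, rose from 85.2 and 100 to 119 and 109 CPM (adjusted p = 0.0353).

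Of 81 tested ribosomal protein genes, 55 fell and 3 rose. Together they held 43.8% of non-globin UMIs at E8.5, then 48.4 and 47.8% at E10.5, followed by 35.1 and 35.8% at E12.5. Npm1, a nucleolar protein, fell from 2146 and 2116 to 394 and 396 CPM (log2 change -2.36 ± 0.10, adjusted p = 3.12e-12), Lyar from 363 and 377 to 23.0 and 31.0 CPM, and Nhp2, a part of snoRNA particles, from 705 and 720 to 109 and 97.4 CPM. Srm, the spermidine synthase, fell from 280 and 298 to 28.5 and 31.3 CPM. Of 13 chromatin genes 10 fell and 3 rose, the latter led by the histone gene Hist1h2bc, from 22.7 and 24.3 to 311 and 319 CPM.

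The metallothioneins Mt1 and Mt2, which bind zinc and other metals, peaked at E10.5. Mt1 had 103.9 CPM at E8.5, then 17136 and 15358 at E10.5, then 1649 and 2375 at E12.5, and 756 and 494 at E14.5. The fall from E10.5 to E12.5 was a log2 change of -2.95 ± 0.17 for Mt1 (adjusted p = 1.74e-10), with 12064 and 10480 against 988 and 1512 CPM for Mt2. The E8.5 library entered no test. Crabp1, a retinoic acid binding protein, and Mrap, an accessory protein of the melanocortin receptor, had the largest falls among abundant genes, with log2 changes of -4.36 and -4.08. Xist, Hist1h2ap and Tipin were also among the 10 largest. In free RNA Crabp1 stood at 1087 and 1105 CPM at E10.5 and at 9.93 and 13.3 at E12.5, and Xist at 1422 and 1721 and then at 42.6 and 58.4, whereas Mrap stood at 1.49 and 1.39 and then at 37.8 and 32.8.

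The 10 largest rises among abundant genes were, besides Tspo2, mostly genes of heart muscle: Myl2, Mybpc3, Myoz2, Hspb7, Actc1, Nppa, Pln and Myl3, with the matrix protein gene Mgp. Myl2, a ventricular myosin light chain, had 0.604 and 2.86 CPM at E10.5 and 2655 and 2544 at E12.5, and free RNA of the E12.5 hearts had 16772 and 13481 CPM. All 12 cardiomyocyte markers were called higher, as were 7 of 7 mesenchyme and 6 of 7 endothelial markers (the other fell), with the same counts without cells over 2% cardiomyocyte markers. The summed share of non-globin UMIs for mesenchyme was 0.00704 and 0.00177% at E10.5 and 0.0157 and 0.0154% at E12.5, and for endothelium 0.00565 and 0.00543% and then 0.0120 and 0.00600%, and their part in the other results was not tested. Without cells over 2% cardiomyocyte markers, 0.603 and 0.448% of non-globin UMIs at E12.5 still came from the list. Free RNA held 5.90 and 5.29% there and 0.0522 and 0.0519% at E10.5. Tspo2 stood at 2.18 and 1.60 CPM in the free RNA of the E12.5 hearts.

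From E12.5 to E14.5, 13 of 14 haem synthesis genes and 18 of 19 membrane genes fell (10 and 14 without cells over 2% cardiomyocyte markers), while Malat1, Neat1, the ferritin chain Ftl1 and Hmox1 rose. Of 8468 genes, 656 rose (7.75%) and 1164 fell (13.7%). Without cells over 2% cardiomyocyte markers, 410 of 7684 rose (5.34%) and 705 fell (9.17%), and 238 rises and 595 falls were called both with and without them. The median change of all genes was -0.08 with all cells and -0.30 without those cells. Without E14.5 replicate 2 the number called, 1820 in all, was 1195, and it was 774 of 2041 without genes more abundant in free RNA. Where a second value is given below, it is the one without cells over 2% cardiomyocyte markers. Most red cell genes named below lay higher in that setting, Alas2 and Bnip3l among them, while Mki67 lay lower.

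Of 14 haem synthesis genes 13 fell and none rose, with a median log2 change of -2.27, and without those cells 10 fell, with a median of -1.60. Cpox, an enzyme of the last steps, fell from 326 and 273 to 26.6 and 24.0 CPM (log2 change -3.75 ± 0.24, adjusted p = 5.89e-09, and -2.68 without those cells). Alas2 stood apart from the list, with 2663 and 2285 CPM at E12.5 and 1747 and 1674 at E14.5, called lower at -0.72 (adjusted p = 0.000114), but at 0.26 without those cells (adjusted p = 0.277) and called higher at 0.59 with a globin share of at least 50% (adjusted p = 0.00300). The list held 1.03 and 0.914% of non-globin UMIs at E12.5, and 0.337 and 0.312% at E14.5 or 0.483 and 0.446% without those cells.

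Of 13 tested iron genes 2 rose and 4 fell, and without those cells 4 rose and 2 fell. The mitochondrial iron importer mitoferrin (Slc25a37) fell from 1326 and 1324 to 100 and 41.9 CPM (log2 change -4.40 ± 0.20, adjusted p = 1.35e-10, and -3.47 without those cells). The ferritin light chain Ftl1 rose from 29266 and 26918 to 65253 and 60095 CPM (log2 change 0.97 ± 0.10, adjusted p = 1.23e-06, and 1.95 without those cells). Fth1 had 57880 and 52916 CPM at E14.5, which was not called with all cells (adjusted p = 0.168) and was higher by 1.16 without those cells (adjusted p = 5.16e-05). The iron list, of which ferritin was the bulk, held 12.46 and 11.46% of non-globin UMIs, and 18.8 and 17.3% without those cells.

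Hmox1, haem oxygenase, which breaks haem down and frees its iron, had the largest rise among abundant genes. It stood at 0.799 CPM at E8.5, then 1.21 and 0.571 at E10.5, then 22.5 and 10.9 at E12.5, and 1045 and 1276 at E14.5. The log2 change from E12.5 was 5.98 ± 0.20 (adjusted p = 2.90e-12), and 6.80 without those cells. In definitive cells of the same E14.5 libraries it stood at 4.69 and 2.55 CPM.

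Of 19 membrane and skeleton genes 18 fell and none rose, with a median log2 change of -2.54, and without those cells 14 fell, with a median of -1.57. Rhd fell from 798 and 663 to 56.1 and 38.9 CPM, Rhag, its carrier partner, from 186 and 179 to 14.8 and 8.98 CPM, and Icam4, an adhesion protein, from 128 and 140 to 8.85 and 5.99 CPM. Rhd changed by -4.13 ± 0.21 (adjusted p = 2.50e-10), and by -3.11 without those cells. Slc43a1, an amino acid transporter, had 46.1 and 46.8 CPM at E12.5 and no UMI at E14.5, at least 10.4-fold lower.

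Among 22 tested regulators 11 fell and 2 rose, with a median log2 change of -0.60 that became 0.05 without those cells, where 6 fell and 3 rose. Klf1 fell from 273 and 249 to 14.8 and 0 CPM (log2 change -5.31 ± 0.38, adjusted p = 1.86e-08, and -4.57 without those cells). Gata1 was at 72.6 and 72.9 and then at 26.6 and 5.99 CPM (adjusted p = 0.000191, but 0.0516 without those cells). Tal1 rose from 159 and 156 to 215 and 341 CPM (log2 change 0.63, adjusted p = 0.0143, and 1.43 without those cells), a call that was lost without E14.5 replicate 2 (adjusted p = 0.397). Receptors for erythropoietin (Epor) and for interleukin-3 family cytokines (Csf2rb) fell, Epor from 71.1 and 60.8 to 5.90 and 2.99 CPM (log2 change -4.05, and -2.98 without those cells). Klf1 and Epor had only 5 and 2 UMIs in E14.5 replicate 1. Genes with few CPM at E14.5 rest on few UMIs, so the sizes of such falls are uncertain. The acid phosphatase gene Acp5 had the largest fall among abundant genes, from 692 and 692 to 20.7 and 11.98 CPM (log2 change -5.59 ± 0.22, adjusted p = 2.24e-11, and -4.52 without those cells).

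Of 18 tested maturation genes 11 fell and 1 rose, with a median of -0.96, and without those cells 6 fell and 4 rose, with a median of -0.18 that lay above the -0.30 of all genes. Hemgn, a nuclear protein of red cell precursors, fell from 259 and 244 to 11.81 and 11.98 CPM (log2 change -4.58, and -3.53 without those cells). Map1lc3b, a coat protein of autophagosomes, rose from 935 and 907 to 1579 and 1336 CPM (log2 change 0.48, adjusted p = 0.00710, and 1.44 without those cells). Bnip3l had 1083 and 1051 CPM at E14.5, at -0.30 (adjusted p = 0.0679) with all cells and called higher at 0.61 (adjusted p = 0.00485) without those cells. It was also called higher with a globin share of at least 50% (0.93, adjusted p = 0.000202) and without genes more abundant in free RNA (0.32, adjusted p = 0.0196). It was called lower with the replicate block (-0.29, adjusted p = 0.0441), with no filter on low counts (-0.43, adjusted p = 0.00526) and without E12.5 replicate 2 (-0.40, adjusted p = 0.00516), so its direction was not settled. Of 8 antioxidant genes 5 fell and none rose, and without those cells 2 fell and 3 rose. Gpx1 fell from 16701 and 17085 to 2134 and 1866 CPM (log2 change -3.26, and -2.39 without those cells).

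Ribosomal proteins held 27.9 and 28.8% of non-globin UMIs at E14.5, with 67 of 81 genes down and none up. Without those cells 21 fell and 9 rose, and the median of -0.15 lay above that of all genes. The mitochondrially encoded list rose in 11 of 13 genes, with a median log2 change of 1.22, and in 9 without those cells. Its share was 1.68 and 1.62% at E12.5 and 3.89 and 3.94% at E14.5, and without those cells 1.62 and 1.09% at E12.5 and 2.15 and 1.66% at E14.5, against 2.36 and 2.46% at E10.5. In free RNA the list held 7.20 and 5.90% at E12.5 and 13.1 and 13.6% at E14.5, and its part in this rise was not tested. Of 20 G2M genes 8 fell and none rose, and 9 fell without those cells. Mki67 fell from 95.7 and 89.9 to 29.5 and 27.0 CPM (log2 change -1.90, and -2.22 without those cells). S phase genes had 1 rise and 1 fall of 20, with a median log2 change of 0.54 that turned to -0.58 without those cells, where 1 fell and none rose.

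**Figure D4:**
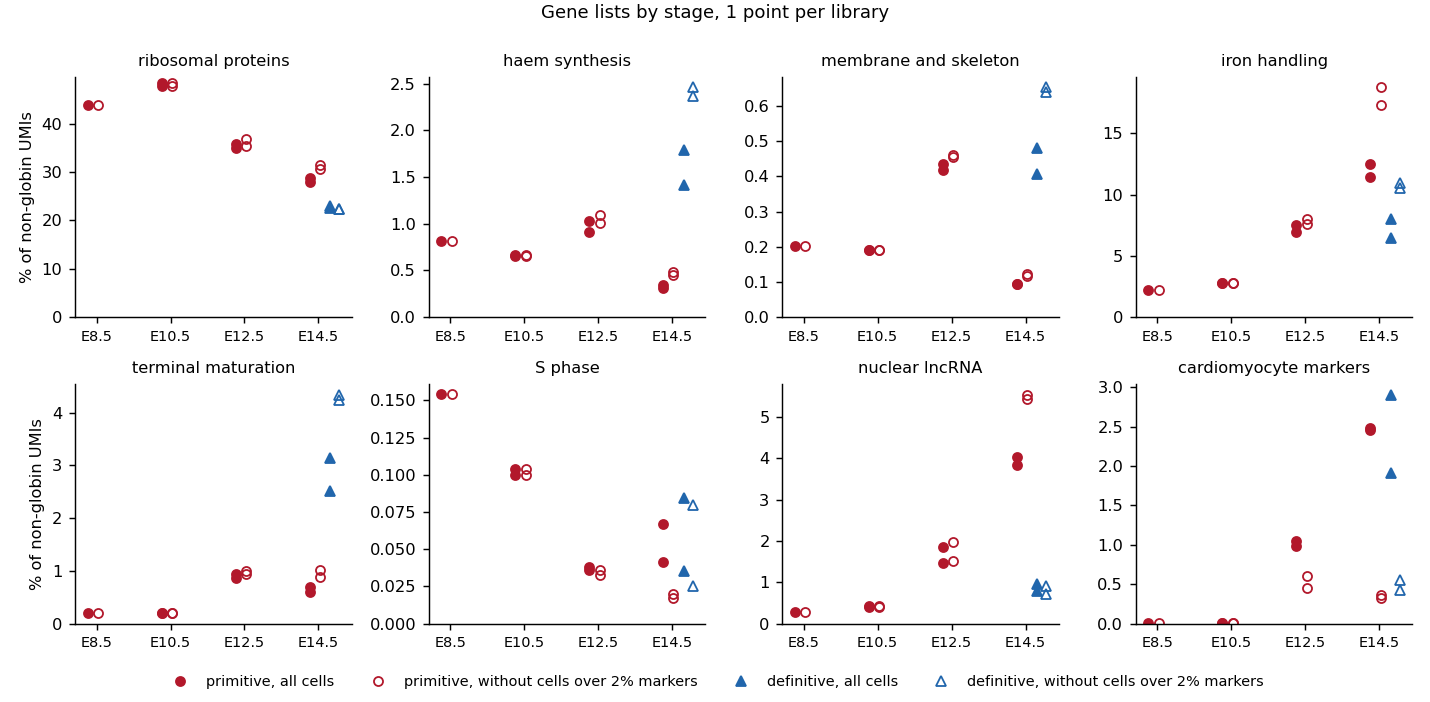
Percent of non-globin UMIs held by 8 gene lists, by stage, 1 point per library, for primitive (circles) and definitive (triangles) cells, with all cells (filled) and without cells over 2% cardiomyocyte markers (open). Haem synthesis in primitive cells rose to 1.03 and 0.914% at E12.5 and fell to 0.337 and 0.312% at E14.5, and nuclear long non-coding RNA reached 4.04 and 3.83%.

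Other genes were also among the 10 largest rises. Junb, an early response transcription factor, rose from 39.1 and 40.8 to 508 and 267 CPM, Bbc3, which promotes apoptosis, from 17.5 and 20.8 to 118 and 147 CPM, and Slc38a2, an amino acid transporter, from 42.1 and 55.5 to 310 and 240 CPM. Phf23 rose from 23.0 and 24.2 to 227 and 219 CPM (log2 change 3.05 ± 0.19, adjusted p = 3.75e-09, and 4.04 without those cells), and 4932422M17Rik from 25.04 and 46.4 to 215 and 201 CPM. The muscle genes Ckm, Mb and Sorbs2 were also among the 10, and Sorbs2 lost its call without those cells (log2 change 0.22, adjusted p = 0.841). Of the 12 cardiomyocyte markers 10 were higher and none lower with all cells, and none was higher and 3 were lower without those cells, among them Nppa at -1.58 (adjusted p = 0.000684).

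Of 5 nuclear long non-coding RNAs, 3 rose and 1 fell from E10.5 to E12.5 (2 and 2 without cells over 2% cardiomyocyte markers), and 4 rose and none fell from E12.5 to E14.5 (3 and none without those cells). Malat1, a transcript held in nuclear speckles, stood at 2361 CPM at E8.5, then 2830 and 2868 at E10.5, then 14365 and 18388 at E12.5, and 39734 and 37723 at E14.5. The log2 changes were 2.59 ± 0.12 (adjusted p = 7.52e-12) and 1.06 ± 0.11 (adjusted p = 1.76e-06), the latter 1.93 without those cells. In free RNA Malat1 stood at 1182 CPM at E8.5 and at 3049 and 3326 at E10.5, above the cells there. It stood at 3056 and 4335 at E12.5, and at 7457 and 7971 at E14.5. Neat1, which builds paraspeckles, had 0 to 0.302 CPM up to E10.5, 21.5 and 19.6 at E12.5, and 224 and 279 at E14.5. In UMIs per cell, the Malat1 median was 38 at E8.5, then 37 and 32 at E10.5, then 79 and 93 at E12.5, and 54 and 47 at E14.5, while non-globin UMIs fell by the amounts given above. The rise in share at E14.5 thus came with fewer Malat1 UMIs per cell and a smaller total, whereas from E10.5 to E12.5 the count per cell rose too.

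At E14.5 Malat1 separated primitive from definitive cells. At least 10 Malat1 UMIs were found in 87.3 and 76.9% of primitive cells, whereas 75.9 and 86.6% of definitive cells had at most 1. After thinning to 500 non-globin UMIs, 3.88 and 7.08% of primitive and 62.3 and 64.0% of definitive cells had no Malat1 UMI. This left out 29 of 158 and 43 of 156 primitive and 96 of 311 and 170 of 320 definitive cells, which had fewer UMIs. Summed over cells, definitive cells had 8862 and 7325 CPM, against 7457 and 7971 CPM in free RNA. These sums came mostly from the 34 and 21 definitive cells with at least 10 Malat1 UMIs. After thinning, the definitive median was 0 Malat1 UMIs in both libraries, so the sums do not describe the typical definitive cell. The difference between both cell types in the same libraries was a log2 value of 2.48 ± 0.08 (edgeR, adjusted p = 0.000570), and 3.26 without those cells.

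Primitive and definitive cells of the same E14.5 suspensions were compared with the library as a block, which leaves 4 sums. Hmox1, Malat1 and 30 of 81 ribosomal protein genes were higher in primitive cells, and 6 of 10 haem synthesis, 5 of 11 membrane and 13 of 16 maturation genes were lower. Of 2946 genes tested, 162 were higher (5.50%) and 133 lower (4.51%). Without cells over 2% cardiomyocyte markers, 400 of 1704 were higher (23.5%) and 383 lower (22.5%), and 158 of the 162 and all 133 were among them. The total of 295 became 497 with globin genes kept, 506 without genes more abundant in free RNA, 521 with other size factors and 539 without a filter on low counts. Cardiomyocyte markers held 2.46 and 2.49% of non-globin UMIs in primitive and 2.90 and 1.91% in definitive cells, and none of the 12 was called. Among definitive cells of replicates 1 and 2, 38 and 30 had over 2% of these markers and held 45.1 and 30.6% of all non-globin UMIs.

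Hmox1 led the genes that were higher in primitive cells, at 1045 and 1276 against 4.69 and 2.55 CPM (log2 difference 8.32 ± 0.34, adjusted p = 0.000570). Its definitive values rest on few UMIs and lay below free RNA of these libraries (16.9 and 14.7 CPM), so the size of the difference is uncertain. Pdzk1ip1, a small membrane protein, followed at 1659 and 1518 against 18.7 and 20.4 CPM (6.56 ± 0.25, adjusted p = 0.000570). In primitive cells it had 39.2 CPM at E8.5, then 106 and 91.7 at E10.5, followed by 1483 and 1448 at E12.5. Hsd3b6, a steroid dehydrogenase, had 2075 and 1848 against 92.2 and 133 CPM, and 7.99 CPM at E8.5, then 46.5 and 40.6 at E10.5, followed by 2679 and 2619 at E12.5. Fam174b had 387 and 347 against 10.9 and 2.55 CPM, and in primitive cells 0.799 to 2.29 CPM up to E10.5 and 255 and 280 at E12.5. These 3 genes were thus low in early primitive cells and high from E12.5 on.

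The regulators Tal1 and Lyl1, close relatives that bind DNA together with Gata1 and Lmo2 in blood cells, were higher in primitive cells, Tal1 at 215 and 341 against 6.25 and 17.9 CPM (log2 difference 4.80 ± 0.36, adjusted p = 0.00333) and Lyl1 at 186 and 129 against 25 and 17.9 CPM (3.09, adjusted p = 0.00502). Lmo2 was lower, at 8.85 and 0 against 141 and 181 CPM (-4.86 ± 0.68, adjusted p = 0.0125). Its primitive values rest on few UMIs and lay below free RNA of these libraries (19.8 and 16.9 CPM), so the size of this difference is uncertain. Klf1 had 14.8 and 0 against 37.5 and 71.5 CPM and was not called (adjusted p = 0.200), but was called lower without those cells (adjusted p = 0.00176). These 3 calls were the only ones among 10 tested regulators with all cells.

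Of 10 tested haem synthesis genes 6 were lower and none higher. Alas2 had 1747 and 1674 against 7661 and 9601 CPM (-2.11 ± 0.16, adjusted p = 0.00333), and Fech, which inserts iron into haem, 289 and 308 against 2803 and 3758 CPM (-3.22). Of 11 membrane genes 5 were lower and the others were not called. Fth1 was higher, at 57880 and 52916 against 19593 and 23076 CPM (1.60 ± 0.12), while Ftl1 was not called with all cells (adjusted p = 0.0593) and was higher by 0.78 without those cells (adjusted p = 3.52e-07).

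Of 16 tested maturation genes 13 were lower and 1 higher, with a median log2 difference of -2.20 against -0.01 for all genes. Mkrn1, a ubiquitin ligase, had 440 and 371 against 5675 and 7583 CPM (-3.80). Isg20, an exonuclease, had no UMI in primitive cells and 87.5 and 89.4 CPM in definitive ones, at least 19.8-fold lower. Pim1, a survival kinase, was the 1 higher, at 390 and 365 against 145 and 207 CPM.

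Among the other leading genes, Cd82, a tetraspanin of the cell surface, had no UMI in primitive cells and 102 and 112 CPM in definitive ones, at least 24.0-fold lower, though DESeq2 did not call it (log2 difference -7.38, adjusted p = 0.421). Mpp1, a membrane skeleton protein, had 17.7 and 2.99 against 445 and 583 CPM, and Cmas, which activates sialic acid, 32.5 and 38.9 against 655 and 797 CPM. Cdc25b, Pepd and Dcn were also among the 10, and Dcn is a fibroblast gene. Of 6 tested mesenchyme markers 4 were lower in primitive cells.

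Ribosomal protein genes were higher in 30 of 81 and lower in none, with shares of 27.9 and 28.8% against 23.0 and 22.6% of non-globin UMIs. Without those cells 64 of 80 were higher and 1 lower. Mitochondrially encoded genes were not called with all cells (0 of 12), and 8 of 12 were lower in primitive cells without those cells. Of 12 G2M genes 2 were lower, Nusap1 and Ube2c, a mitotic ubiquitin enzyme at 316 and 126 against 1759 and 2167 CPM (-3.01 ± 0.43, adjusted p = 0.0127). Antioxidant genes split, with Gpx1 lower at 2134 and 1866 against 12407 and 16009 CPM and with Prdx1 and Sod1 higher.

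**Figure D5:**
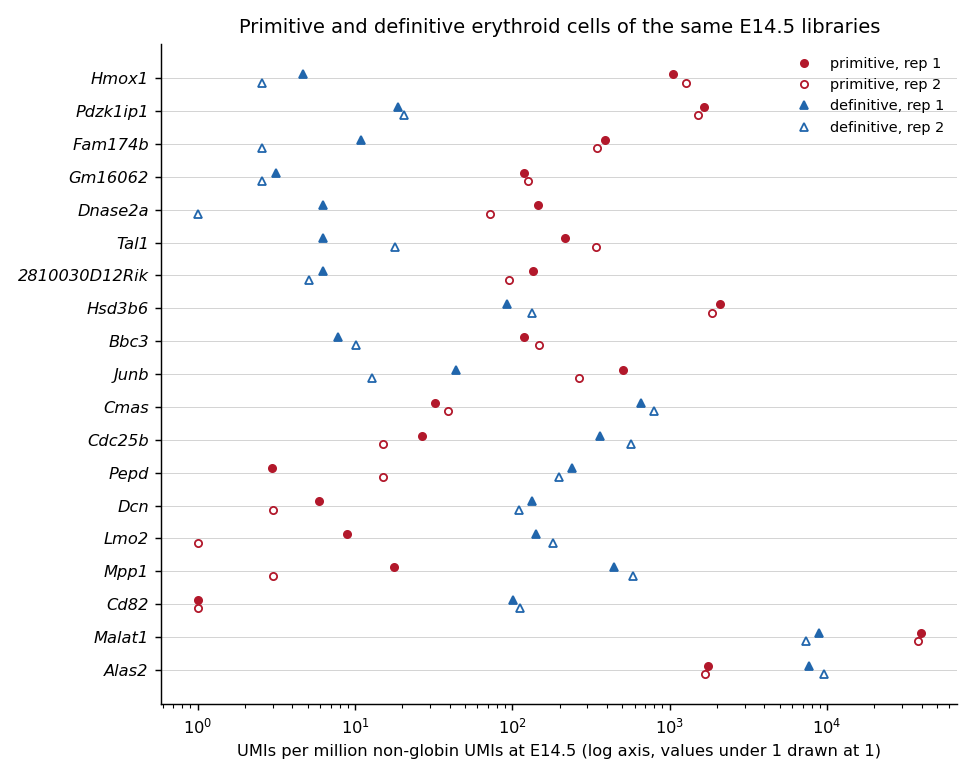
Levels of leading genes, Malat1 and Alas2 in the summed primitive (circles) and definitive (triangles) erythroid cells of the 2 E14.5 libraries, in CPM of non-globin UMIs on a log axis, with values under 1 drawn at 1. Hmox1 had 1045 and 1276 in primitive and 4.69 and 2.55 in definitive cells, Malat1 39734 and 37723 against 8862 and 7325, and Alas2 1747 and 1674 against 7661 and 9601.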

How the data were processed

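For 10 matrices of 27998 genes the authors deposited raw counts, the UMIs that Cell Ranger assigned to each gene in each barcode on mm10. The submitters' notes name Cell Ranger 2.1.1 and Seurat 3.1.1, while the matrix headers name versions 3.1.0 and, for P3, 3.0.0. The counts are not normalized and not corrected for free RNA, and the embryonic matrices hold all barcodes. E16.5 replicate 1 and P3 pool 2 sample records each. Reads were not used.

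Counts of the chosen cells were summed per library, without the 7 globin genes, and tested with edgeR 4.0.16 (R 4.3.3; quasi-likelihood, TMM, filterByExpr, adjusted p under 0.05) in 1 fit of 6 libraries across E10.5, E12.5 and E14.5. Primitive and definitive sums of E14.5 were fitted with the library as a block, since both come from 1 suspension. E16.5 against E14.5 was planned and not run, because its libraries held fewer than 20 primitive cells. DESeq2 1.42.0 was an alternative. Scripts were tested on simulated data. Named genes are list members (the most abundant and those with the largest rise or fall), 10 further genes of red cell maturation and division, and the 10 largest rises and falls past the threshold with a mean of at least 50 CPM and no overlap between groups. The members and lists were chosen with earlier results of these data known. Other settings of rule, filter, scaling, test and libraries were listed per result, 55 in all with 1 added after seeing the data, and the closing section gives the counts of genes and the stage values under them, and of named genes those that turned and how many gained or lost a call. Promoter sequences are from RefSeq. Some genes that the rule names are not reported here.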

Additional observations from a re-analysis of the deposited data

Results flagged for a closer look

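A few barcodes at E16.5, a stage that entered no test, met the rule for primitive erythroid cells. Replicate 1 held 5 among 7162 barcodes, and replicate 2 held 3 among 7123. They were noted because they lie outside the compared stages and the count in replicate 1 is over 3, which does not show that cells of this type were present. The 8 cells were small, with 1016 to 2237 UMIs. Hbb-y held 41 to 533 UMIs in the cells of replicate 1 and 161 to 618 in those of replicate 2, and Hba-x 154 to 859 and 39 to 161, whereas Hbb-bs held 1 to 8 and 2 to 41. Malat1 had 0 to 2 UMIs in the cells of replicate 1 and 2 to 6 in those of replicate 2. In the free RNA of these libraries 1.41 and 2.15% of beta globin UMIs were embryonic. With a floor of 3000 UMIs, 0 cells were left in replicate 1. Whether these barcodes were whole cells was not tested.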

How the results depend on the processing

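The number of primitive erythroid cells was 1073 with a globin share of at least 50%, 1528 with embryonic at least 3 times adult beta globin, 1465 and 1640 with a UMI floor of 3000 and 500, 1706 with a globin share of at least 10%, and 1489 without cells over 2% cardiomyocyte markers, the last an alternative chosen after seeing the data. From E10.5 to E12.5, 1390 genes were called without genes more abundant in free RNA (2041 tested), 3576 with DESeq2, and 3528 to 5135 when each library was left out in turn. From E12.5 to E14.5 the number was 885 with a globin share of at least 50%, 1115 without cells over 2% cardiomyocyte markers and 774 without genes more abundant in free RNA, where fewer cells or genes entered, 1459 with DESeq2, and 1195 to 1847 when each library was left out in turn (1195 without E14.5 replicate 2). Between primitive and definitive cells it was 704 with a globin share of at least 50%, 783 without cells over 2% cardiomyocyte markers, 521 with RLE size factors, 539 with no filter, 497 with globin genes kept, 506 without genes more abundant in free RNA and 202 with DESeq2, which left 628 adjusted p-values as NA. The cause of these differences was not tested. With the other settings (3 times embryonic beta globin, a floor of 3000 UMIs and, in the stage comparisons, RLE size factors, no filter or globin genes kept) the numbers were 4235 to 5207, 1708 to 1984, and 303 and 325, and the differences by stage kept their direction with the first 2.

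The difference of E14.5 minus E10.5 in mitochondrial share turned from 1.51 to -0.505 percentage points without cells over 2% cardiomyocyte markers, where that of S phase moved from -0.0475 to -0.0830, G2M from -0.0751 to -0.126, nuclear RNA from 3.52 to 5.08 and haem synthesis from -0.334 to -0.194. From E12.5 to E14.5, without cells over 2% cardiomyocyte markers, Actc1 turned to -0.37, Myl2 to -0.24, Alas2 to 0.26 and Bnip3l to 0.61. With a globin share of at least 50%, Alas2 and Bnip3l were called higher at 0.59 and 0.93, and Sorbs2 was at -0.60 and not called. Without genes more abundant in free RNA Bnip3l was called higher at 0.32. Of the other values of 41, 35 and 32 named genes under all settings, 9, 12 and 4 lost their call in the 3 comparisons and 4, 10 and 11 gained one, all in the same direction. Nppa, not called from E12.5 to E14.5, was called lower in 6 settings, at -2.66 to -0.67. The cause was not tested.

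Deviations from the stage means correlated at -0.0028, -0.0113 and 0.0157 between libraries with the same replicate number. With 2 libraries per stage, this cannot show whether such libraries shared a litter or day. With the replicate block, 4566 and 1730 genes were called in the stage comparisons, and without the block 427 between primitive and definitive cells. No library could be left out of the last comparison, since no residual degrees of freedom would remain. Values by stage could not be had with a globin share of at least 50% at E10.5, where 3 and 12 cells were left. When each library was left out in turn, the differences of E14.5 minus E10.5 ranged from 1.29 to 1.49 percentage points for the cell share, -25.3 to -24.5 for Hbb-bh1, -20.1 to -19.3 for ribosomal proteins, 1.46 to 1.56 for mitochondrial genes, -0.0601 to -0.0350 for S phase, -0.110 to -0.0400 for G2M, 3.41 to 3.62 for nuclear RNA, -0.347 to -0.322 for haem synthesis and -0.0986 to -0.0961 for the membrane list, and from -13630 to -9338 for median UMIs per cell. The E14.5 sums held 338803 and 333904 non-globin UMIs against 1996688 and 2648636 at E12.5, and the part of this depth in the number of calls was not tested.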
